A study of Mus musculus with 3 samples.

Results

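Prph2, Rom1 and Abca4 encode membrane proteins of the photoreceptor outer segment, the stack of light-catching discs at the tip of a rod or cone. They were chosen by name: all probe sets whose single gene symbol in the platform annotation was one of these were taken, which gave 4 probe sets of 3 genes, out of 12422 probe sets that were not controls and 8251 named genes. Rom1 was read by 2 of the probe sets, and Prph2 and Abca4 by 1 each. The samples were 3 pools of mouse neural retina taken at postnatal day 7 (P7), each from 3 to 4 animals. All pools came from wild-type mice on a mixed 129/SvEv and C57BL/6 background, whose littermates included Rp1-/- animals used elsewhere, and all were collected between 1 and 2 pm. The samples form 1 group and no mutant or treated sample was analysed, so the questions that can be asked are whether each gene had signal above background, how evenly the pools carried it, and whether probe sets of 1 gene gave the same pattern. The pools are numbered 1 to 3 as names only. Nothing in the labels says that the pools came from separate litters, so the p-values below describe how far these samples differed, which may in part reflect handling of the RNA or arrays.

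Discs are held flat by their sharply curved rims. Prph2 (peripherin-2, also known as rds) and Rom1 are related tetraspanins, proteins that cross the membrane several times, and they assemble with each other into the oligomers that shape the rim. Mice without functional Prph2 do not build outer segments. Abca4 is an ATP-driven flippase in the same rim region: it moves retinal bound to phosphatidylethanolamine out of the disc lumen so that the retinoid can be recycled, and mutations of the human gene cause Stargardt macular degeneration. Mouse outer segments are only beginning to form at the age sampled here.

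Some features of the whole arrays bear on the values below. Array signal is in scaled intensity, the deposited value brought to a common median across the arrays, with factors between 0.959 and 1.09. A probe set counted as above background in a pool when it passed the 90th percentile of 73 probe sets for genes of unrelated tissues, which was 348, 288 and 310 in pools 1, 2 and 3. Lens transcripts set pool 1 apart: the 19 probe sets of the lens marker list summed to 55663 in pool 1, 246598 in pool 2 and 269879 in pool 3. The ratio of the 3' to the 5' control probe set of the beta-actin gene Actb was also highest in pool 1, at 1.81 against 1.27 and 1.30. That of Gapdh differed less, at 0.874, 0.788 and 0.812 in pools 1, 2 and 3. The part of lens transcripts or of these ratios in the results below was not tested. Among the other marker lists, 7 of 10 measured genes of inner retinal neurons, 3 of 5 of cones, 5 of 7 of Müller glia and 4 of 12 of vessels, blood and microglia were above background in all pools, where 45.0% of all named genes had a probe set that was. In whole tissue, fewer cells of a type and less RNA per cell cannot be told apart.

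All 4 probe sets of the outer segment genes were above background in all 3 pools, where 36.8% of all probe sets were. So were 6 of the 73 probe sets that set the bar, and passing it does not by itself show signal of the named gene. The signal of a probe set in a pool was between 2.39 and 12.6 times the bar. Because probe sets differ in how strongly they bind, each is compared only across pools, and no level is set against that of another probe set.

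Prph2 had the widest spread of the 3 genes. Its single probe set, 101169_at, had scaled intensities of 1261, 981 and 3901 in pools 1, 2 and 3 (mean 2048 ± 1611, SD, n = 3 pools). Pool 3 was the high one, 3.09-fold above pool 1, and pools 1 and 2 lay within 1.28-fold of each other. The lowest value was still 3.41 times the background bar of its pool, so every value lay above the bar. On the log2 scale the SD was 1.06, where 0.28 was estimated for probe sets of that brightness.

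Whether this exceeded ordinary spread was tested across the array. Of the 6211 probe sets in the brighter 50%, limma called 83 (1.34%) as varying more than others of their level, at an adjusted p below 0.05. Such calls are termed excess spread here. Of the 4 probe sets of the outer segment genes, all of them tested, Prph2 and 1 of Rom1 were called. The genes were chosen with earlier results of these data known, so this count is a description. For Prph2 the limma adjusted p was 0.000291. It was 0.0865 with the deposited values taken without scaling and 0.0763 after quantile normalisation, although the fold between the highest and the lowest pool was then larger, 4.51 in both cases against 3.98. With dim probe sets kept in the test it was 0.978, and none on the array was called. Only 3 tested probe sets, Prph2 included, stood at least as far above the other pools in pool 3. The call rested on pool 3: without it the adjusted p was 0.996, and without pool 2 it was 0.202.

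**Figure D1:**
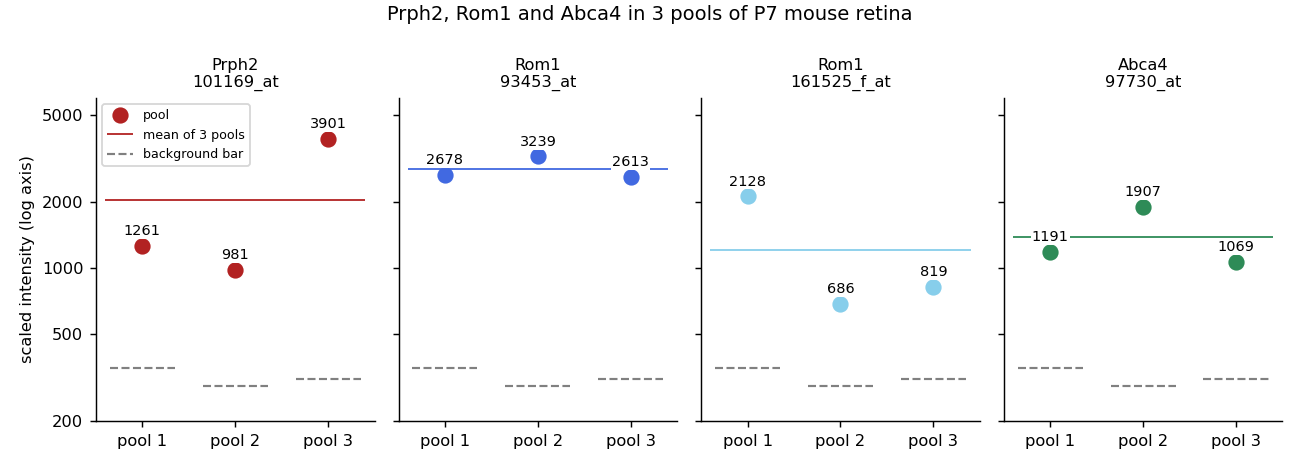
Scaled intensity of each of the 4 probe sets in pools 1, 2 and 3 (points, log axis), with the mean of the 3 pools (solid line) and the background bar of each pool (dashed lines at 348, 288 and 310). Prph2 is high in pool 3 (3901), the _f_at probe set of Rom1 is high in pool 1 (2128), and the other Rom1 probe set lies between 2613 and 3239.

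Rom1 gave different pictures through its probe sets. The probe set 93453_at was even across the pools, with 2678, 3239 and 2613 in pools 1, 2 and 3 (2843 ± 344, SD, n = 3). Its highest pool was 1.24-fold above its lowest, and its limma adjusted p for excess spread was 0.992. With no scaling that fold was 1.09 and after quantile normalisation 1.05, and in the last case pool 1 was the highest (2887, 2843 and 2756).

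The other Rom1 probe set, 161525_f_at, did not follow it. Its intensities were 2128, 686 and 819 (1211 ± 797, SD, n = 3), with pool 1 standing 2.60-fold above pool 3 and pools 2 and 3 within 1.19-fold of each other. Its excess spread had a limma adjusted p of 0.0097, which was 0.272 without scaling and 0.197 after quantile normalisation, although the fold between the highest and the lowest pool was then larger, 3.51 and 3.48 against 3.10. It was 0.978 with dim probe sets kept, 0.983 without pool 1 and 0.494 without pool 2. The ending _f_at marks a probe set whose probes are not all unique to 1 transcript, so signal from related sequences may be included, whereas the plain ending _at of the other carries no such mark. Pool 1 was also the pool with the highest Actb 3' to 5' ratio, whereas the Gapdh ratio differed little between pools (0.874, 0.788 and 0.812). The part of either ratio in the Rom1 values was not tested.

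Of the 83 probe sets with excess spread, 9 had 1 pool standing apart upward. Each of the 83 was sorted by the larger gap between its ordered log2 values, with no minimum gap, so graded profiles can be included. By this rule the low pool stood apart in 74, most often pool 1 (40) or pool 3 (26). The same sorting was not done over all tested probe sets, so these counts have no share to be set beside. Of the 83, 13 were probe sets of the lens marker list. Pool 3 was the high one in 5, pool 2 in 3 and pool 1 in 1, which was the _f_at probe set of Rom1. Of the 5 with pool 3 high, chosen here after their values were seen, Prph2 was the one above background in every pool. The others were probe sets of Ankrd33b (464, 240 and 1476 in pools 1, 2 and 3), the lens gene Crygb (328, 391 and 1106), the keratin gene Krt36 (207, 265 and 739) and Prp2 (152, 143 and 686). At least 1 of the lower values of each lay below its bar. That of Crygb was an _f_at probe set, and those of Krt36 and Prp2 had the ending _r_at, given under relaxed selection rules. The plain probe set of Crygb had 3415, 14970 and 17902, with pool 1 low.

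**Figure D2:**
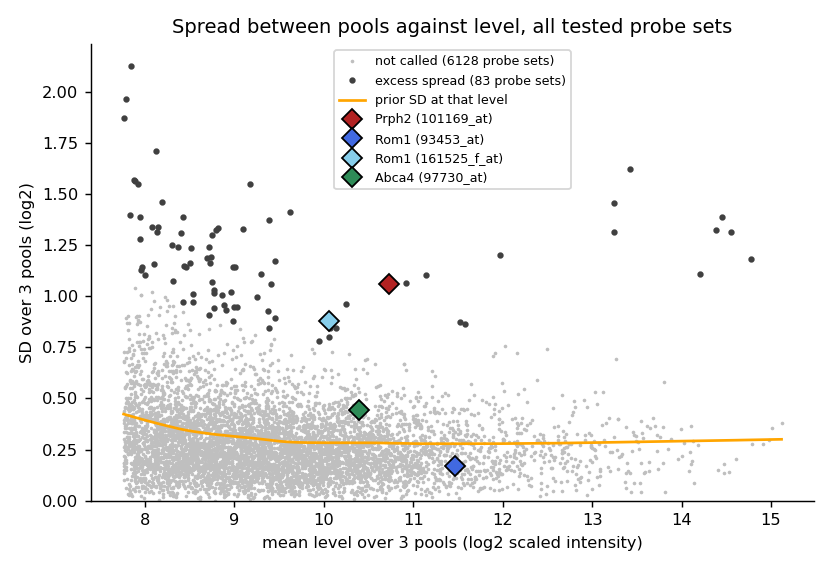
SD over the 3 pools (log2) against mean level (log2 scaled intensity) for the 6211 tested probe sets: grey points were not called, black points are the 83 with excess spread, and the orange line is the spread estimated for each level. Prph2 (SD 1.06) and the _f_at probe set of Rom1 (0.88) lie far above the line, Abca4 (0.44) lies above it among uncalled probe sets, and the plain one of Rom1 (0.17) lies below it.

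The difference between the Rom1 probe sets was then tested directly. The log2 ratio of the _f_at to the plain probe set, less its mean over the pools, was 1.08 in pool 1, -0.82 in pool 2 and -0.26 in pool 3, so the ratio ranged 3.75-fold between pools. Across the array there were 904 pairs of probe sets that shared a gene and were both bright enough to test, and 3 of them (0.332%) had a disagreement beyond that of pairs of the same brightness at a limma adjusted p below 0.05. The Rom1 pair was not among them (limma adjusted p = 0.153, unadjusted p = 0.00119). It ranked 7 of 904 by p, and 24 pairs, Rom1 included, had a range at least as wide as its own. The median pair ranged 1.59-fold. Among the 151 pairs made of an _f_at and a plain _at probe set the median was 1.64-fold, and 2 of these pairs, Rom1 included, were at least as wide as Rom1. A p above the threshold does not show that the probe sets moved alike. Pairs of 1 gene can share a probe set and are not all independent.

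**Figure D3:**
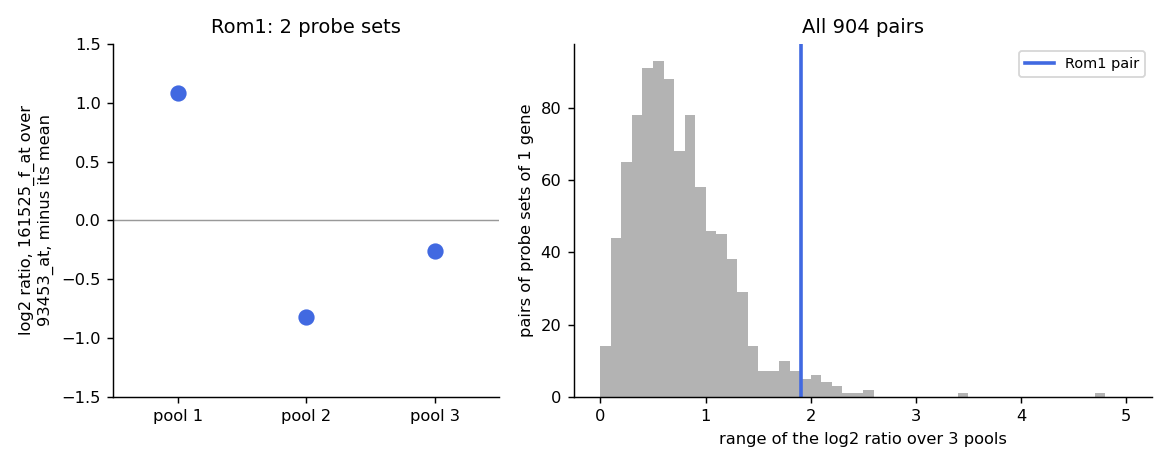
Left, the log2 ratio of the Rom1 probe sets, _f_at over plain _at, less its mean over the pools (points), at 1.08, -0.82 and -0.26 in pools 1, 2 and 3. Right, the number of pairs of probe sets of 1 gene by the range of their log2 ratio over the 3 pools, for all 904 pairs; the line marks the Rom1 pair at 1.91.

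Abca4 was intermediate. Its probe set 97730_at had intensities of 1191, 1907 and 1069 in pools 1, 2 and 3 (1389 ± 453, SD, n = 3), with pool 2 the high one at 1.60-fold above pool 1. Its log2 SD of 0.44 was wider than the 0.28 estimated for its level, and the limma adjusted p of 0.882 (unadjusted p = 0.0881) gave no call. In pool 2 its log2 deviation from its own mean was 0.50, where the median over the 4576 probe sets above background in all pools was 0.12, and 55.3% of those probe sets were highest in pool 2.

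The 3 genes were not all highest in the same pool, and no test compared them with each other. Prph2 was highest in pool 3, and Abca4 and the plain Rom1 probe set in pool 2. The order of Rom1 changed under quantile normalisation. By log2 deviation from the own mean, Prph2 was at -0.42, -0.78 and 1.21 in pools 1, 2 and 3, Rom1 by its plain probe set was at -0.08, 0.19 and -0.12, and Abca4 was at -0.17, 0.50 and -0.33. In pool 3 Prph2 was above its own mean, and Abca4 and both Rom1 probe sets were below theirs. Ranks within each array, which no scaling can change, gave the same picture for Prph2, with percentiles of 88.3, 81.9 and 97.6 among all probe sets. The percentiles of the plain Rom1 probe set were 96.1, 96.0 and 95.8, those of the _f_at one were 94.4, 74.6 and 80.7, and those of Abca4 were 87.3, 91.8 and 86.0.

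The promoters are shown because the proteins meet in the same photoreceptor membrane, and photoreceptor genes are commonly bound by Crx, a homeodomain factor that prefers the letters TAATCC. The sequences are the 100 bases before the transcription start, read in the direction of the gene, from RefSeq (build GRCm38.p6), with each TAATC on either strand in capitals (GATTA is TAATC on the opposite strand). Prph2 lies on the plus strand at chr17:46910378-46910477, Rom1 on the minus strand at chr19:8929357-8929456 and Abca4 on the plus strand at chr3:122044360-122044459.
Prph2: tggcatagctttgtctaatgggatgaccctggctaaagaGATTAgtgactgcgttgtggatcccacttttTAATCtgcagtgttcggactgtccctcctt
Rom1: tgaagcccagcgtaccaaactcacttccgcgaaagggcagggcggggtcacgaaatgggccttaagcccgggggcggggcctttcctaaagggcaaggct
Abca4: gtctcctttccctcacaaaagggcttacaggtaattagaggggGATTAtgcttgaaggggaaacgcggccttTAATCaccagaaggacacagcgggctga
Over the window of 300 bases in the table (250 before the start and 50 after it), TAATC was found 3 times in Prph2, 2 times in Abca4 and not in Rom1. Of all 32851 promoters in the table, 22.0% held it on either strand. The full TAATCC, which contains TAATC, was found in 7.06% of all promoters and, of these genes, in Abca4 alone. A match describes letters and not a bound site, and its absence says only that the letters are not in this window. The arrays do not measure the promoters.

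Other genes of disc and outer segment structure were mostly above background. Of 24 genes on this list, 10 were measured and 9 had a probe set above background in all pools, against 45.0% of all genes. Prom1, which encodes prominin-1 of the forming discs at the outer segment base, averaged 8114 ± 1097 by its plain probe set (SD, n = 3, as for the values that follow). Tulp1, a photoreceptor protein needed for transport to the outer segment, averaged 7863 ± 1713, and Rpgr, a protein of the connecting cilium, 651 ± 195. None of the 12 tested probe sets of this list had excess spread by limma, and 1 had an unadjusted p below 0.05.

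Phototransduction proteins carried by the rod outer segment were above background for 9 of 13 measured genes, against 45.0% of all genes. Pde6b, a catalytic subunit of the rod phosphodiesterase, had 5400, 7155 and 5523 by its plain probe set in pools 1, 2 and 3, and Pde6g, the inhibitory subunit, had 6604, 8277 and 7074. By these probe sets both were highest in pool 2. The _f_at probe set of Pde6b had 892, 742 and 758 and was highest in pool 1. None of these probe sets had excess spread. Of 15 tested probe sets 2 had excess spread, where 1.34% of all tested ones did: that of the rod transducin alpha gene Gnat1 (219, 699 and 680, limma adjusted p = 0.0162) and 1 of the 3 of Gnb1, a transducin beta gene (3239, 3783 and 934, limma adjusted p = 9.67e-05). The low value of Gnat1 was below its bar. The other probe sets of Gnb1 were not called but were also lowest in pool 3 and highest in pool 2. They had 8011, 12398 and 5953, and 10928, 14984 and 5848, in pools 1, 2 and 3. Among the 12 probe sets of the list above background in all pools, 1 was highest in pool 3, where 18.5% of all 4576 above background were. The median log2 deviations of these 12 were -0.10, 0.22 and -0.15 in pools 1, 2 and 3, beside -0.04, 0.12 and -0.08 over all probe sets above background.

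Of 7 measured genes on a list for the retinoid cycle, which Abca4 serves, and for retinol transport, 2 were above background in all pools, against 45.0% of all genes. They were Rdh11, a retinol dehydrogenase gene, which averaged 1502 ± 108 by its _f_at probe set, and Rlbp1, which encodes the retinaldehyde-binding protein of Müller glia and pigment epithelium, at 2900 ± 419. Rdh5, Rgr, Stra6, Rbp4 and Ttr were below the bar in every pool, and Rdh5, Rgr and Ttr are also on the marker list of pigment epithelium. Pigment epithelium, which also makes some Abca4, had none of its 8 measured marker genes above background in all pools. Its list of 11 probe sets summed to 1134, 1327 and 1495 in pools 1, 2 and 3. Rdh5, Rgr, Ttr, Tyr, Tyrp1 and Mitf were below the bar in every pool. Dct, a melanin synthesis gene, had 347, 333 and 472 and was above the bar in pools 2 and 3. Pmel, a melanosome protein gene, had 145, 412 and 293 and was above it in pool 2. The part of pigment epithelium in the Abca4 values was not tested.

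Transcription factors that drive photoreceptor genes were above background for 4 of 9 measured genes, against 45.0% of all genes. Crx averaged 6935 ± 1286, the rod determinant Nrl 627 ± 145, and Neurod1, a factor of developing photoreceptors and amacrine cells, 6467 ± 1174. None of their 6 tested probe sets had excess spread by limma, and 0 had an unadjusted p below 0.05. By pool, Crx had 5536, 8066 and 7203, Nrl had 777, 617 and 487 and Neurod1 had 6944, 5129 and 7327 in pools 1, 2 and 3. Of the 4 probe sets above background, 1 was highest in pool 1 (Nrl), 2 in pool 2 (Crx among them) and 1 in pool 3 (Neurod1). Over all 4576 probe sets above background, 26.2%, 55.3% and 18.5% were highest in pools 1, 2 and 3.

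Members of the same protein families were measured too. Of all genes 45.0% were above background. Of 18 other tetraspanin genes measured, 8 were above it, among them Cd9 at 929 ± 142, Cd63 at 1383 ± 288 and Cd81 at 1723 ± 181, tetraspanins made by many cell types. Of 24 other ABC transporter genes measured, 8 were above it, among them the cholesterol exporter Abca1 at 1248 ± 188 by the brighter of its probe sets, Abca2 at 753 ± 127 and Abcb8, a mitochondrial transporter gene, at 612 ± 204. By limma none of the 13 tested tetraspanin probe sets had excess spread (0 at an unadjusted p below 0.05), and none of the 14 tested ABC transporter probe sets did (1 at an unadjusted p below 0.05).

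**Figure D4:**
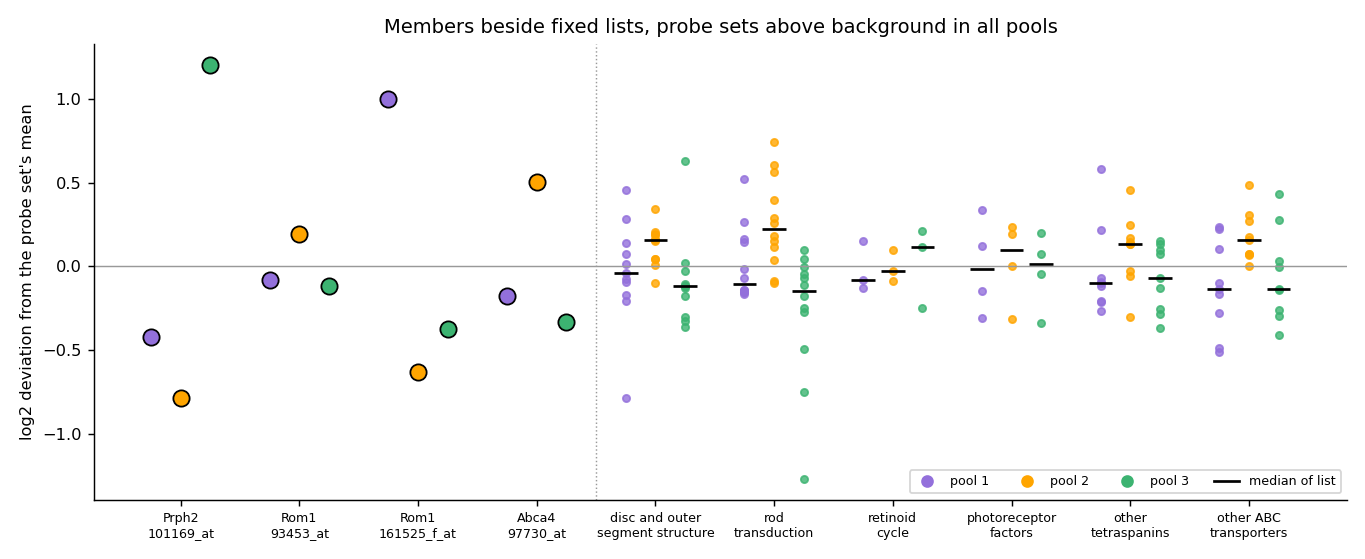
Log2 deviation of each probe set from its own mean over pools 1, 2 and 3 (colours), for the 4 probe sets of the outer segment genes (large points) and for the probe sets of 6 lists above background in all pools (small points, with black bars for the list's median per pool). Prph2 in pool 3 (1.21) and the _f_at probe set of Rom1 in pool 1 (1.00) lie above every point of the lists, whose medians stay between -0.15 and 0.22.

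For each member, the candidate probe sets of other genes whose values ran most like it were found by the distance between log2 deviations over the 3 pools. Candidates were tested probe sets of a single named gene that were above background in all pools. An even profile over 3 pools is shared by many genes: for the plain Rom1 probe set 1158 of 4165 candidates lay within a distance of 0.2, the nearest being Huwe1, a ubiquitin ligase gene, and Rhpn1, at 0.004 each. For Abca4 209 of 4166 lay within 0.2, with the dynactin subunit gene Dctn1 (3621, 5821 and 3218 in pools 1, 2 and 3) and Praf2 the nearest. No candidate lay within 0.2 of Prph2 or of the _f_at probe set of Rom1. The distance depends on the size of the deviations as well as their order. Few near candidates therefore follow from a wide spread and are no separate result. The candidates nearest to Prph2 were Gstm2 (500, 375 and 1063, distance 0.42) and Polr1c (357, 293 and 715, distance 0.55), each by an _r_at probe set, a type made under relaxed selection rules. Neither was called, and the plain probe set of Polr1c did not follow (575, 687 and 625). The called probe sets of Ankrd33b, Crygb, Krt36 and Prp2 that were high in pool 3 were not candidates. Each was below its bar in at least 1 pool, so the nearest candidates need not be the nearest of all tested probe sets. The nearest to the Rom1 _f_at probe set were Macroh2a1, a histone variant gene, by an _r_at probe set (1180, 434 and 606, distance 0.29), and Ik (991, 433 and 478, distance 0.32). The plain probe set of Macroh2a1 was lowest in pool 1 (1558, 1961 and 1625).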

How the data were processed

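The authors deposited 1 processed intensity per probe set and array on a linear scale, from 0.1 to 55245.8, for MG-U74Av2 arrays, per the labels. The software and any background correction are not named in the labels or files. Gene symbols came from the platform annotation, updated by gene ID through RefSeq (10817 of 10833 probe sets with a single gene matched). After removal of 66 controls, arrays were scaled to a common median, floored at the 20th percentile (42.2) and put on the log2 scale. Excess spread was tested with limma 3.58.1 in R 4.3.3. The variance over the arrays was divided by the prior variance from squeezeVar (robust, level as covariate). This ratio was put to an upper-tail F test at the largest prior degrees of freedom of any tested probe set. Benjamini-Hochberg adjustment was made over all tested probe sets. The same test was run on log2 ratios of probe sets that share a gene. Lists were described by counts alone. Named genes were the members, the first 3 of each list above background, list genes with excess spread, and the 2 nearest candidates per member probe set. Members and lists were chosen with earlier results of these data known. Of the alternatives, those with other scaling, filters, floors, priors or bars and those leaving out an array are given in the closing section. A planned comparison of the proteins was not run, since no protein sequences were used here.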

Additional observations from a re-analysis of the deposited data

How the results depend on the processing

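All 4 probe sets stayed above background under no scaling, quantile normalisation, bars at the 75th and 95th percentiles and without each pool. The number with excess spread by limma, 2, was 0 with no scaling between arrays and 0 under quantile normalisation (2 at an unadjusted p below 0.05 in each), 0 with no filter on dim probe sets (0 at an unadjusted p below 0.05), 1 for a prior without the robust option and 1 for 1 prior variance for all levels, Prph2 being the one in the last 2 settings. When each pool was left out, 0 to 1 passed. The count was 2 in the brightest 25%, with the floor at the 10th percentile and with a pseudocount of 16. Over all settings the limma adjusted p ranged from 0.000172 to 0.996 for Prph2 and from 0.0097 to 0.983 for the _f_at probe set of Rom1. The prior degrees of freedom used in the F test, the largest of any tested probe set, were 279. They were 8.56 with no scaling, 8.66 under quantile normalisation and 0.851 when dim probe sets were kept. The Rom1 pair was not called under any setting, with an adjusted p of 0.114 to 0.969. With 3 arrays, precision is limited for every value.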

Other observations

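In the promoters of Prph2 and Abca4 the matches to TAATC had a like arrangement, seen after the sequences were read. In both, a match on the opposite strand came first and a match on the strand of the gene followed, with 26 bases between them in Prph2 and 24 in Abca4. The first began 61 bases before the start in Prph2 and 57 in Abca4, and the second 30 and 28. Of all 32851 promoters in the table, 100 (0.304%) held this order with 15 to 35 bases between, a range set after the spacing was known, so the share is a description and no test. In the arrays Prph2 was highest in pool 3 and Abca4 in pool 2, where 55.3% of all probe sets above background were highest. Whether these genes varied together was not tested.

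Among the 5 probe sets with excess spread that were high in pool 3, the lowest limma adjusted p was that of Ankrd33b, 1.49e-05, beside 0.000291 for Prph2. It was singled out after its values were seen, and its intensity of 240 in pool 2 was below the bar.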
